A study of Mus musculus with 2 samples.

Results

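Matn1, Matn2, Matn3, Matn4, Comp, Thbs1, Thbs2, Thbs3 and Thbs4 encode the matrilins, cartilage oligomeric matrix protein (COMP) and the thrombospondins. These 9 genes were taken by name from 18193 named genes, with every probe set (a group of array probes for 1 transcript) whose annotation gave that gene alone. They were read by 14 of 45101 probe sets. A further probe set that names Thbs1 together with another gene was not used. The RNA came from wild-type C57BL/6J mouse embryos at E17.5, for which no treatment is given, and was hybridised to 2 Affymetrix mouse arrays. One array received RNA of cartilage portions rich in round chondrocytes, and the other RNA of portions rich in columnar and hypertrophic cells. For an array, 3 preparations were mixed. Each group is 1 array, so a value has no replicate error, no test and no p-value.

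Matrilins are adaptor proteins of the extracellular matrix that assemble through a coiled coil and bind collagen fibrils and proteoglycans through von Willebrand factor A domains. Thrombospondins are calcium-binding matrix glycoproteins. Thbs1 and Thbs2 form trimers and carry type 1 repeats that inhibit blood vessel growth, whereas Comp, Thbs3 and Thbs4 form pentamers and lack those repeats. In cartilage, COMP and matrilin-3 sit on fibrils of type II, IX and XI collagen, and in humans dominant mutations of either gene cause multiple epiphyseal dysplasia, in which the mutant protein is retained in the endoplasmic reticulum (ER).

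Values are MAS5 signals, which are linear intensities. A floor of 100.5 was set from 87 probe sets of chemosensory receptor genes, and 11703 genes were above it on at least 1 array. Differences are log2 of the columnar/hypertrophic signal minus log2 of the round signal, from the brightest probe set of each gene. Probe sets of 1 gene disagreed with an SD of 0.367 on this scale over 4825 genes, which is a technical spread and not a replicate error. A difference of 2-fold was counted. By this measure 504 genes (4.31%) were higher in columnar/hypertrophic RNA and 745 (6.37%) were lower, so 40.4% of the genes past 2-fold were higher, against 67.7% when the arrays were scaled to equal medians. The median of all genes was -0.05, and 0.21 after that scaling. Markers followed the labels in part. All 4 hypertrophic markers above the floor were higher on the columnar/hypertrophic array, but Mmp13, a gene of the last hypertrophic stage, stayed below the floor (22.8 and 11.7). All 5 markers of round and resting cells were lower, and all 5 chondrocyte markers, Matn1 among them, were within 2-fold.

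Among the 9 genes, the thrombospondins moved apart and the matrilins and Comp moved little. Thbs3 was 2.17-fold higher in columnar/hypertrophic than in round RNA and Thbs2 was 5.05-fold lower. The other 7 genes were within 2-fold, with Thbs1 closest to that limit at 1.77-fold higher. Thus 1 of 9 was higher against a background of 4.31%, and 1 of 9 lower against 6.37%, and with 9 genes these shares say little about the group. Differences were above 0 for 6 genes and below 0 for 3, with a median of 0.33.

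**Figure D1:**
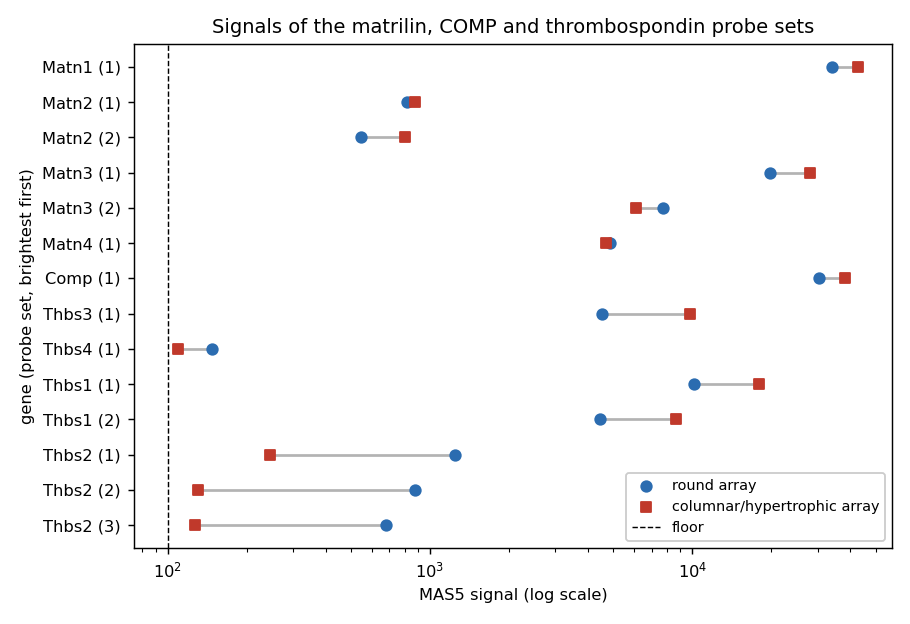
MAS5 signal (horizontal, log scale) of the 14 probe sets of the 9 genes in round (circles) and columnar/hypertrophic (squares) RNA, 1 array a group, a dashed line at the floor (100.5) and probe sets of a gene numbered from the brightest. The 3 Thbs2 probe sets shift to lower signals, both Thbs1 probe sets and Thbs3 shift to higher signals, and Thbs4 lies near the floor.

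Matn1 encodes matrilin-1, long known as cartilage matrix protein. Its only probe set had a signal of 33893 in round and 42742 in columnar/hypertrophic RNA, 1.26-fold higher (0.33). That difference was under the spread between probe sets of 1 gene. Matn3 encodes matrilin-3, which forms mixed oligomers with matrilin-1 in cartilage. Its brightest probe set gave signals of 19835 and 28084, 1.42-fold higher (0.50). A second Matn3 probe set, of a kind that can match several transcripts, gave 7732 and 6092, which was 1.27-fold lower (-0.34). The probe sets therefore disagreed by 0.85 and no direction was settled for Matn3.

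Matn2 and Matn4 are found in a wider range of tissues than Matn1 and Matn3. The Matn2 probe sets gave 819 and 880 (0.10) and 545 and 803 (0.56), both higher on the columnar/hypertrophic array and both within 2-fold. Matn4 had signals of 4870 and 4673 (-0.06), and its sign turned to 0.22 with equal medians. All 4 matrilin genes were thus within 2-fold, with a median of 0.22, compared with -0.05 over all genes.

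Comp, the pentameric thrombospondin that is mutated in human pseudoachondroplasia, had a difference like that of Matn1. Its probe set had signals of 30272 and 38130, 1.26-fold higher (0.33). Bright genes as a class were somewhat higher on the columnar/hypertrophic array. Over 280 genes with a mean signal of at least 10000, the median difference was 0.23 and the quartiles were 0.08 and 0.39, and 7 of them were at least 2-fold higher and 6 lower. Comp and Matn1 lay within those quartiles, and lowess centring, which removes the trend with signal, reduced them to 0.08 each. Matn3 (37 bright genes were higher) and Thbs1 (10 were higher) lay above the upper quartile.

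**Figure D2:**
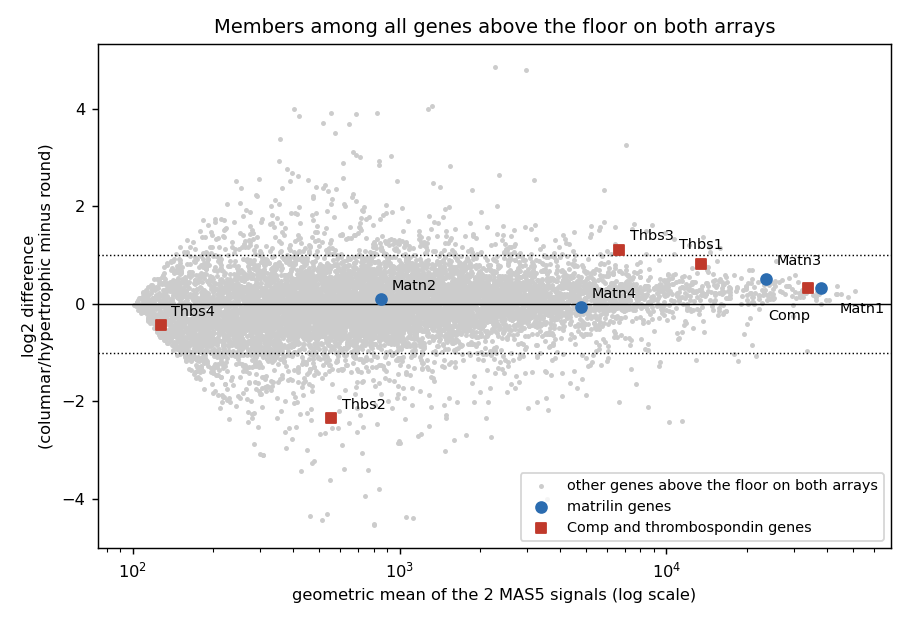
Log2 difference (columnar/hypertrophic minus round, vertical) against the geometric mean of the 2 MAS5 signals (horizontal, log scale) for genes above the floor on both arrays, 1 point a gene, with dotted lines at 2-fold. Thbs3 lies above the upper dotted line and Thbs2 below the lower one. Comp and Matn1 lie at the bright end close to other genes of like signal, and Matn3 lies there above most of them.

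Thbs3, a pentameric thrombospondin that influences skeletal maturation in mice, had signals of 4508 and 9771, a difference of 1.12. Of 11703 genes, 396 had a larger positive difference. The call was near its limit, since quantile normalization gave 0.98 and lowess centring 0.96, both under 2-fold. Mtx1, a mitochondrial outer membrane gene, is the next gene beside Thbs3 in the RefSeq annotation, lies on the opposite strand and is transcribed away from it. The Mtx1 signals were 2823 and 6644 by one probe set (2.35-fold higher) and 1099 and 2142 by the other (1.95-fold higher). Mtx1 was taken for its position, outside the rule for named genes, and whether the genes share control was not tested.

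Thbs1 encodes thrombospondin-1, an inhibitor of angiogenesis that can also activate latent TGF-β. Its probe sets gave 10101 and 17898 (1.77-fold higher, 0.83) and 4444 and 8642 (1.94-fold higher, 0.96). Both probe sets were higher on the columnar/hypertrophic array and neither reached 2-fold, although Thbs1 passed it with equal medians (1.11). Platelets carry much thrombospondin-1, and of 3 platelet markers 2 exceeded the floor on 1 array or both, 0 passed 2-fold and the summed signals were 474 (round) and 324 (columnar/hypertrophic). Of these, Itga2b had signals of 343 and 254, Pf4 was at the floor in round RNA alone (102 and 40.1) and Gp9 was under it. Of 5 endothelial markers, 0 were above the floor on either array. The hypertrophic markers were higher with Thbs1 and Thbs3, with summed signals of 1560 and 36792 over the 5 genes on the array. Of 3 osteoblast markers on the array, Sp7 was 11.4-fold higher, Ibsp was at least 1.23-fold higher and Dmp1 was under the floor on both. The summed signals of 197 and 2082 came mostly from Sp7 (170 and 1940). Ibsp reached 124 on the columnar/hypertrophic array, near the floor. The part of platelet, hypertrophic and osteoblast RNA in the Thbs1 and Thbs3 differences was not tested.

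Thbs2, the other trimeric member, encodes a protein that helps to order collagen fibrils and also restrains angiogenesis. Its brightest probe set went from 1242 (round) to 246 (columnar/hypertrophic), 5.05-fold lower (-2.34). The second went from 880 to 130, 6.75-fold lower, and the third from 682 to 127, 5.36-fold lower. All 3 probe sets were above the floor on both arrays and passed 2-fold in the same direction, although 2 of them were within 1.30 times the floor in columnar/hypertrophic RNA. Of all genes, 0.709% had a lower difference. By their brightest probe sets, the paralogs Thbs1 and Thbs2 lay 3.16 apart on the log2 scale, against 0.56 between the highest and lowest matrilin. The highest was Matn3, whose other probe set gave -0.34.

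Several markers of fibrous tissue were lower on the same array as Thbs2. Of 8 genes of perichondrium, fibroblasts and tendon, 6 exceeded the floor on 1 array or both, 4 of these were at least 2-fold lower (Postn, Col3a1, Tnmd and Col1a1; background 6.37%) and 0 higher, and Scx and Dpt were under the floor on both. Col1a2 was within 2-fold by its brightest probe set (-0.85) but reached -1.98 by another, and Lum, among the brightest of them, went the other way (22381 and 25256, 0.17). Their summed signals were 80880 (round) and 46898 (columnar/hypertrophic). The 5 markers of round and resting cells went the same way, from a summed signal of 25189 to 1176. The part of these tissues in the Thbs2 difference was not tested, and in RNA from whole tissue portions fewer cells of a type and less RNA per cell cannot be told apart.

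Thbs4 is a pentameric thrombospondin of tendon and muscle. Its probe set gave 148 in round and 109 in columnar/hypertrophic RNA, 1.35-fold lower (-0.44), which is 1.47 and 1.09 times the floor. With the floor at the 99th percentile of chemosensory probe sets the columnar/hypertrophic signal became a bound and the difference was -0.02. No difference in Thbs4 could be read at this signal. Of 6 muscle markers, 3 exceeded the floor on 1 array. Tnnt3 was higher by at least 4.26-fold in columnar/hypertrophic RNA, Acta1 and Ckm were just above the floor on the round array alone, and the myosin genes Myh3 and Myh8 and the regulator Myog were under it on both. The summed muscle signals were 343 and 548, a gain carried by Tnnt3 alone (63.4 and 429). The other 5 markers were under the floor in columnar/hypertrophic RNA, where the size of a difference could not be read. The part of muscle RNA in the Thbs4 values was not tested. Of 4 blood and myeloid markers on the array, 2 were above the floor, with summed signals of 359 and 235 and 0 past 2-fold.

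**Figure D3:**
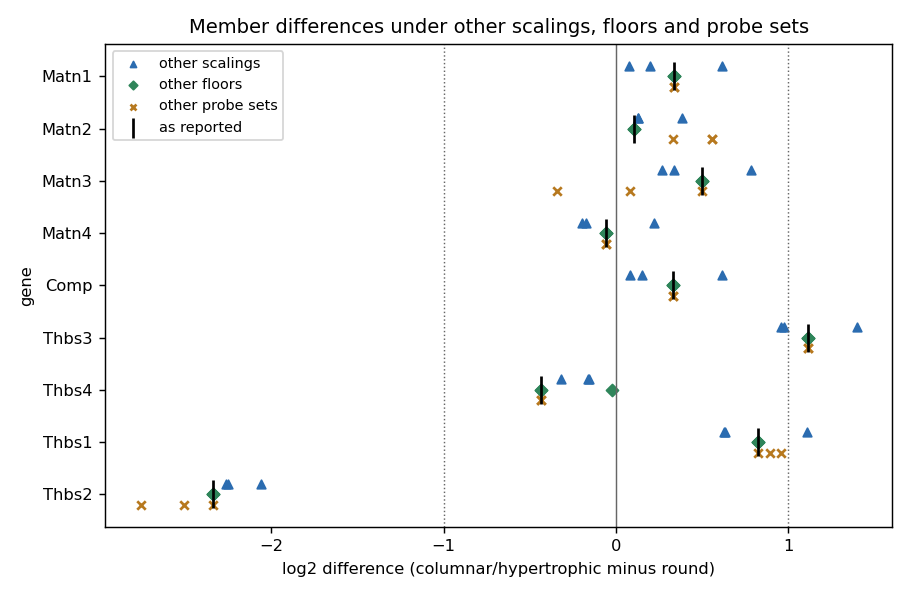
Log2 difference (columnar/hypertrophic minus round, horizontal) of the 9 genes as reported (bars) and with other scalings (triangles), other floors (diamonds) and other probe sets (crosses), with dotted lines at 2-fold. Thbs2 stays between -2.75 and -2.06, Thbs3 between 0.96 and 1.40 and Thbs1 between 0.63 and 1.11, while Matn3 and Matn4 have values on both sides of 0.

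The upstream sequences of the genes that passed 2-fold (Thbs2 and Thbs3) and of the cartilage matrilins (Matn1 and Matn3) are shown because these genes went different ways or stayed level. They are the 250 bases before the start, from RefSeq on GRCm38.p6, which held such windows for 6 of the 9 genes. Capitals mark matches on either strand to the SOX core ACAAT, the RUNX core ACCACA, the GC box GGGCGG and the TATA box TATAAA.
Thbs2 (chr17:14694263-14694512, minus strand): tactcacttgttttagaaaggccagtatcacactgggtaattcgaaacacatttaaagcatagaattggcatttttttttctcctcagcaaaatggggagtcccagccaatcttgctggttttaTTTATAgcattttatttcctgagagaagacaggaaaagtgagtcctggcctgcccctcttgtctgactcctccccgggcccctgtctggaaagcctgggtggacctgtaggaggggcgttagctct
Thbs3 (chr3:89214930-89215179, plus strand): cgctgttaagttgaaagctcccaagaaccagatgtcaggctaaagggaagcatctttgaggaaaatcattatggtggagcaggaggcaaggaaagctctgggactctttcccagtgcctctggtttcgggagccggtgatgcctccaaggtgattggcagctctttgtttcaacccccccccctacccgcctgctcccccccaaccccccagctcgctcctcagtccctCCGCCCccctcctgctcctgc
Matn1 (chr4:130944135-130944384, plus strand): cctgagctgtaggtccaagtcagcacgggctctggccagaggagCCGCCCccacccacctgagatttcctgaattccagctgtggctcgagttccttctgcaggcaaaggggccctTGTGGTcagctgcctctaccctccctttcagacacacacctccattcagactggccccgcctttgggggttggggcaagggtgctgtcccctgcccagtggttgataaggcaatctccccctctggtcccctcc
Matn3 (chr12:8947679-8947928, plus strand): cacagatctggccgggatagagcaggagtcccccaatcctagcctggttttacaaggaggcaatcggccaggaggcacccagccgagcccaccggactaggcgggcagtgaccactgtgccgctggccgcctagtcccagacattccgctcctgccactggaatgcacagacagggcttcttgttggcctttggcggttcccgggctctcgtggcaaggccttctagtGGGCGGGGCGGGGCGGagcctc

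The Thbs2 window held 1 TATA box match, a motif present in 12.4% of all 32841 upstream windows of that length, and no GC box, a motif of 32.8% of them. Its GC content was 46.8%, against a median of 52.4% over all windows. Matn1 had 1 RUNX core match (14.05% of all windows) and 1 GC box, Matn3 had 3 overlapping GC boxes at 65.2% GC, and Thbs3 had 1 GC box. The SOX core, present in 27.7% of all windows, matched none of the 7 windows of these 6 genes. A match is a run of letters and not a measured binding site.

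The matrix partners of these proteins were compared next, from lists of related genes. The fibrillar backbone that matrilins and COMP bind was level. Col2a1 (0.19), Acan (0.36) and the type IX collagen genes Col9a1 (0.26), Col9a2 (0.24) and Col9a3 (0.27, other probe sets 0.06 and 1.20) lay near Comp and Matn1. Of 18 partner genes, 12 were within 2-fold and the median was 0.25, or 0.07 after quantile normalization. The 5 lower genes were Vcan, encoding versican (20.8-fold, but -0.05 by its least changed probe set), Dcn and Bgn, encoding the small proteoglycans decorin and biglycan (5.36-fold and 2.05-fold), and the type VI collagen genes Col6a2 (3.72-fold) and Col6a1 (2.61-fold). Col6a3, the other type VI collagen gene of the list, was within 2-fold and higher (8615 and 12239, 0.51). Prelp, encoding a leucine-rich repeat protein, was 2.83-fold higher. Thus 5 of 18 (background 6.37%) were lower and 1 of 18 (background 4.31%) higher.

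Of 8 genes linked to epiphyseal dysplasias or related disorders and measured here, Comp and Matn3 among them, all lay above 0 by their brightest probe sets with a median of 0.30, although Matn3 was -0.34 by its other one. Over all genes, 5280 of 11703 lay above 0, and the median of the 280 bright genes was 0.23. The sulfate transporter gene Slc26a2 passed 2-fold (2.03-fold higher; 1 of 8, background 4.31%), but 0 genes of the list did so with lowess centring or quantile normalization. With lowess centring the median of this list was 0.06. General folding genes of the ER, through which all these proteins pass, had 14 of 15 members above 0 by their brightest probe sets, beside the same 5280 of 11703 over all genes. Other probe sets of some members went the other way. The median of the folding genes was 0.28, or 0.12 with lowess centring, beside 0.23 for bright genes. Creld2 alone passed 2-fold (2.04-fold higher; 1 of 15, background 4.31%), and with lowess centring or quantile normalization 0 did.

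Most receptors and binding proteins of thrombospondins were within 2-fold. Of 15 measured, 13 were within it by their brightest probe sets, 2 were lower (background 6.37%) and 0 higher (background 4.31%). The median was -0.24, which turned to 0.12 with equal medians. By another probe set Cacna2d1 (-0.36) was 1.14, the only gene of the list to pass 2-fold higher in that way. Cd47, a receptor for the C-terminal part of thrombospondins, had signals of 2255 and 1762 (-0.36, other probe sets down to -0.80). Cd36, the receptor for type 1 repeats, did not reach the floor on either array (52.9 and 33.4). Sdc1, encoding the proteoglycan syndecan-1, was 2.01-fold lower and Notch3 at least 2.01-fold lower, and both stood at the limit. Among proteases and inhibitors known for turnover of COMP and other matrix proteins, A2m, the gene of the broad inhibitor alpha-2-macroglobulin, was 2.06-fold lower. The other 8 of 9 measured genes counted as within 2-fold by their brightest probe sets (median -0.38, 1 of 9 lower against a background of 6.37%). With equal medians 0 were lower, and without a floor or without suffixed probe sets 2 were. Adamts4 was a bound (104 and 19.7), so the size of its difference could not be read. By their lowest probe sets Mmp14 was -1.26 and Grn -1.04, and by its highest Timp3 was 0.33. Adamts12, a metalloprotease gene whose product cleaves COMP, had signals of 816 and 527 (-0.63), and Adamts7 was below the floor throughout (31.9 and 13.0). Adamts4, Adamts7, Adamts12, Mmp14, Grn, Timp3 and Cacna2d1 were named after their values were seen.

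Other matricellular genes, which like thrombospondins encode matrix proteins that act on cells, were split. Postn (12.2-fold), Tnc, encoding tenascin-C (9.34-fold, with a log2 difference of -1.18 by another probe set), and Ccn3 (at least 3.21-fold) were lower in columnar/hypertrophic RNA, as Thbs2 was. Sparcl1 (2.63-fold) and Tgfbi (2.51-fold) were higher, as Thbs3 was. Of 14 measured, 3 were lower (background 6.37%), 2 higher (background 4.31%) and 9 within 2-fold, and the median was -0.12.

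**Figure D4:**
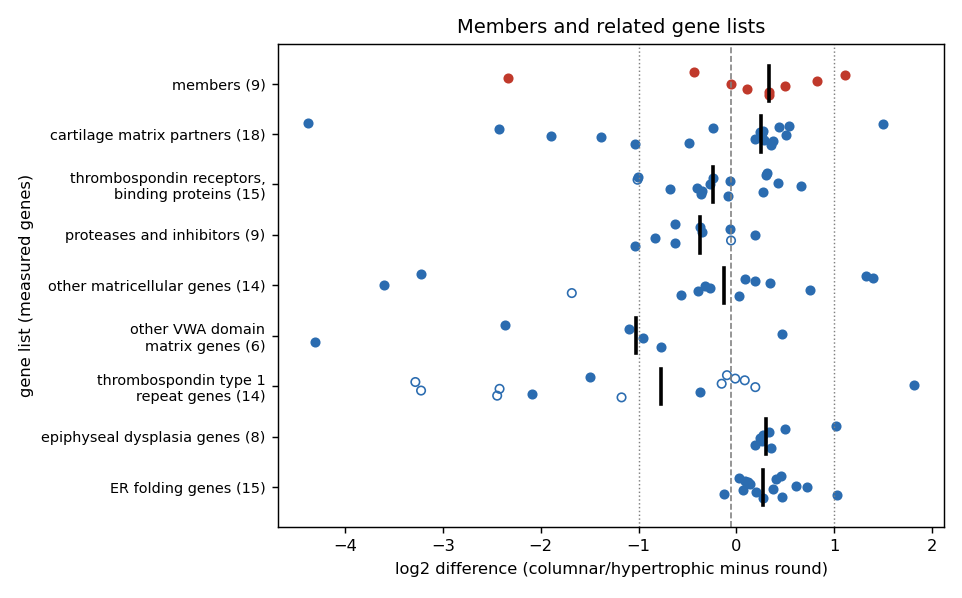
Log2 difference (columnar/hypertrophic minus round, horizontal) of the 9 genes (red) and of the measured members of 8 related gene lists (blue), 1 point a gene, with open points for bounds, black bars for medians, a dashed line at the median of all genes (-0.05) and dotted lines at 2-fold. The medians of the epiphyseal dysplasia list (0.30), of which Comp is a member, and of the ER folding list (0.28) lie near Comp and Matn1. The median of the von Willebrand factor A list (-1.03) lies lowest.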

How the data were processed

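The deposited values were intensities, 1 linear signal per probe set and array, made by the authors with MAS5 according to the submitters' processing notes, which name no version. MAS5 subtracts background and scales each array, and the mean without the outer 2% of signals at each end was 500.0 on both arrays. The methods of the study name RMA, whose values are on a log scale, and these values were linear. Names came from GEO's annotation of the platform (34958 with 1 symbol, 932 with several, 9211 unnamed). All 9 genes matched RefSeq by Entrez identifier. Signals were raised to the floor (95th percentile of chemosensory receptor probe sets), log2 was taken, and each gene was read from its probe set with the highest mean. Where 1 of both signals lay below the floor, the difference is a bound ("at least"), and list medians include bounds. Genes named were all 9 members, each list's genes past 2-fold (or the 4 largest) and a few fixed partners. Col6a3, Mmp14, Grn, Timp3, Cacna2d1 and the CCN and ADAMTS genes within 2-fold were named after their values were seen. The members and lists were chosen with earlier results of these data known. Alternatives were 3 scalings (equal medians, quantile, lowess with span 0.3), floors at the 90th and 99th percentile or none, and 3 other choices of probe set. The procedure was tested on simulated data. Levels of different genes were not compared. With 2 arrays, their number limits the precision. Python 3.11.15, numpy 2.4.6, pandas 2.3.3, statsmodels 0.14.6 and matplotlib 3.10.9 were used.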

Additional observations from a re-analysis of the deposited data

How the results depend on the processing

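Of 300 values recomputed under 9 settings, 272 moved by less than the technical spread of 0.367 or, for counts, by at most 1.5 times, and 0 of the differences past 2-fold changed sign. Part of the 300 values could not change. A floor does not move a gene far above it, and a choice of probe set does not move a gene with 1. Members at least 2-fold higher numbered 2 with equal medians, and 0 with quantile normalization or lowess centring; Thbs2 remained the 1 lower member under the 8 settings with a count. Matn2 was 0.56 by its second probe set, which is also its only one without a suffix. Matn3 was 0.079 as a mean of probe sets and -0.34 by the second, Thbs2 was -2.75 by the second, and Thbs4 was -0.024 with the floor at the 99th percentile. In the lists, the ER folding genes had 2 higher with equal medians, and with quantile or lowess 0, as had the epiphyseal dysplasia genes. Type 1 repeat genes had 0 higher as a mean of probe sets and 2 without a floor, and their median was -1.79 with the higher floor, -1.26 without one and -1.34 after quantile normalization. The von Willebrand factor A list had a median of -0.59 with equal medians. Lower protease and inhibitor genes numbered 0 with equal medians, and 2 without a floor or without suffixed probe sets; lower receptor genes numbered 1 with equal medians, quantile normalization or the higher floor, and 0 as a mean of probe sets or without suffixed ones. The cause was not tested.

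Over all genes, 981 were higher and 469 lower with equal medians, 1171 were lower without a floor, 490 were lower as a mean of probe sets, and the second brightest probe set gave 245 and 313 of 5653 genes, against 504 and 745 of 11703.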

Other observations

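Lists of genes that share a domain with these families were counted in the same way, beside all genes, of which 6.37% were at least 2-fold lower and 4.31% higher. A list of matrix genes with von Willebrand factor A domains held neither the matrilins nor Col6a1, Col6a2 and Col6a3, which were counted as partners. Of its 6 measured genes, 3 were at least 2-fold lower and 0 higher, with a median of -1.03. Its lower genes numbered 2 with equal medians, quantile normalization, lowess centring or the floor at the 99th percentile. Of the type VI genes left out, Col6a1 (-1.38) and Col6a2 (-1.90) were also lower, and Col6a3 (0.51) was not. Col14a1, encoding a fibril-associated collagen of dense connective tissue, went from 2375 to 119 (19.9-fold, with a log2 difference of -2.53 by its least changed probe set). Vwa1, whose product lies around chondrocytes, went from 522 to 101 (5.15-fold), and Col7a1, the anchoring fibril collagen gene, from 229 to 107 (2.14-fold). The columnar/hypertrophic signals of Vwa1 and Col7a1 lay at the floor of 100.5, and that of Col14a1 lay near it.

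A list of genes with thrombospondin type 1 repeats held neither the thrombospondins nor the CCN and ADAMTS genes, some of which stood in other lists. Of its 14 measured genes, 7 were at least 2-fold lower (background 6.37%) and 1 higher (background 4.31%), and 10 of the 14 were bounds (median -0.77). Most of the lower genes, Sema5a, Cilp, Adamtsl3 and Hmcn1 among them, passed the floor on the round array alone, where they were high. Over all genes, 10235 of 11703 passed it on both arrays, so the backgrounds are not a like comparison for this list. In the other lists, Ccn1 (0.02), Ccn2 (-0.57), Ccn4 (-0.39), Ccn5 (0.76), Adamts4 (-0.05, a bound) and Adamts12 (-0.63) were within 2-fold by this count. Ccn3 was at least 3.21-fold lower. The semaphorin gene Sema5a was at least 9.73-fold lower (978 to 95.6), Cilp, encoding cartilage intermediate layer protein, at least 9.35-fold (939 to 91.6), Adamtsl3 at least 5.45-fold (548 to 8.13) and Hmcn1, encoding hemicentin-1, at least 5.36-fold (538 to 40.3). The R-spondin gene Rspo3, a WNT agonist named after its value was seen, was 3.53-fold higher (251 to 884). Of 6 measured markers of fibrous tissue, 4 were also lower on that array, while Lum was not (22381 and 25256) and Scx and Dpt were under the floor. The summed signals were 80880 and 46898, and their part in these differences was not tested.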
